A study of Rattus norvegicus with 18 samples.

Results

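The genes described here are 10 genes of antioxidant defence, most of them known targets of the transcription factor NRF2, chosen by name: Nfe2l2, Hmox1, Nqo1, Srxn1, Txnrd1, Gsr, Slc7a11, Gclc, Gclm and Mt3. All 10 were found among the 10431 named genes of the table, and all 10 were among the 10296 genes with at least 1 FPKM in at least 3 libraries. RNA was sequenced from primary rat astrocytes, isolated by immunopanning from brain at postnatal day 5, after 24 h in culture with an agent. The 6 groups of 3 libraries each received PBS (control), interferon gamma (IFNγ, 3 ng/ml), interferon beta (IFNβ, 1000 U/ml), a mix called TIC here (TNFα at 30 ng/ml, IL1α at 3 ng/ml and C1q at 40 ng/ml), IFNγ with TIC, or IFNβ with TIC. These doses are those of the labels, and the legend of the deposited workbook gives other doses for IFNγ, IFNβ and C1q, so no result below rests on a dose. All groups share the immunopanned culture. No label tells if the 3 libraries per group are from different cultures or animals, so the p-values speak of the spread among these libraries alone.

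NRF2, the product of Nfe2l2, is held at a low level by KEAP1, which marks it for degradation, and is released when reactive cysteines of KEAP1 are oxidised. It then pairs with a small MAF protein and binds antioxidant response elements near genes for glutathione synthesis, thioredoxin reduction, quinone reduction and haem breakdown. In brain, astrocytes are the main site of this programme and supply neurons with glutathione precursors, while TNFα, IL1α and C1q are known as microglial signals that together drive astrocytes into an inflammatory reactive state.

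Promoter sequences show where letters that match the core of such elements lie in some of these genes, and binding was not measured. Windows from 250 bases before to 50 bases after the annotated start, from RefSeq on build GRCr8, were found for 8 of the 10 genes, in 9 windows because Txnrd1 has a pair. The core of the antioxidant response element, TGACNNNGC, was searched on both strands, as was TGANTCA, the site of the AP-1 factors, which resembles part of that element. Of 33469 windows of all genes, 12.1% held the first motif and 7.33% the second. Gclm, Txnrd1 and Nfe2l2 each held 1 match to the first and Srxn1 held 2 matches to the second, at different places, so no match of one motif overlapped one of the other. The 4 windows are shown because they carry these matches, which are in capitals, 5′ to 3′ on the strand of the gene.
Gclm (chr2:213031885-213032184, plus strand): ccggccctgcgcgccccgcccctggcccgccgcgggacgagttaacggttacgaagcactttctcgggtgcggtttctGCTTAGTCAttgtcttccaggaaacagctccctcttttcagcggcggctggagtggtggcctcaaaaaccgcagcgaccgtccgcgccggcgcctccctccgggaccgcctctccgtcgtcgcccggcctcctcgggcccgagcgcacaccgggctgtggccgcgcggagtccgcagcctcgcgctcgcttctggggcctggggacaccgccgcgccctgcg
Txnrd1 (chr7:22755855-22756154, minus strand): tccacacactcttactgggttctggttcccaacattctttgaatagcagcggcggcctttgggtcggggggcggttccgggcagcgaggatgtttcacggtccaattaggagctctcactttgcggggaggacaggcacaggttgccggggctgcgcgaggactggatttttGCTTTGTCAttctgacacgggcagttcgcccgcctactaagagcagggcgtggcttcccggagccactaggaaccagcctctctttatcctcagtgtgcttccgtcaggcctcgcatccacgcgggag
Nfe2l2 (chr3:81028950-81029249, minus strand): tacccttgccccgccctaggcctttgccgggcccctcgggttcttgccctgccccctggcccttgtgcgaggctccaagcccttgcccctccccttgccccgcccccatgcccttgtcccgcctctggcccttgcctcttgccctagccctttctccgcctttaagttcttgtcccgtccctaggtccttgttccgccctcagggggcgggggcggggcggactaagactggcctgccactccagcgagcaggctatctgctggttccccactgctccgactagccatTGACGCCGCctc
Srxn1 (chr3:161064562-161064861, plus strand): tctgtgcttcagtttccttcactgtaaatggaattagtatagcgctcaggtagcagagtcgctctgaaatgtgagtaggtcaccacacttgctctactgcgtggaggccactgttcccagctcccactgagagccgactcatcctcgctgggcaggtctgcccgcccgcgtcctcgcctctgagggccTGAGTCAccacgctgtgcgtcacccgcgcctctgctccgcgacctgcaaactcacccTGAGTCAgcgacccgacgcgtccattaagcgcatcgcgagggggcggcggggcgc
Counted from the start site, the match lay at -172 to -164 in Gclm and at -78 to -70 in Txnrd1, both on the opposite strand, and at 39 to 47 in Nfe2l2. In Srxn1 the matches lay at -62 to -56 and at -5 to 2. Neither motif was present in the windows of Nqo1, Gclc, Slc7a11 and Mt3 or in the other window of Txnrd1, which says only that these letters are not in these 300 bases.

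Values are FPKM (fragments scaled for transcript length and for the mapped fragments of the library) from the authors' deposited table, and sequencing depth was not used here. Libraries of a group correlated at r = 0.982 to 0.991 over genes on the log2 scale. The summed level of 8 astrocyte markers was 1697 to 1851 FPKM in controls, 1011 to 1053 FPKM with TIC and 727 to 742 FPKM with IFNγ and TIC. Of these, Aldoc went from 729 ± 45.9 to 133 ± 0.952 FPKM with TIC and Gfap from 440.0 ± 34.4 to 218 ± 6.66 FPKM, while the means of Gja1 (423 to 494 FPKM), Slc1a2 (26.9 to 31.2 FPKM) and Aldh1l1 (52.8 to 64.1 FPKM) were higher with TIC. The summed level of 4 markers of oligodendrocyte precursors went from 875 to 1116 FPKM in controls to 256 to 284 FPKM with TIC and 128 to 136 FPKM with IFNγ and TIC. Olig1 and Olig2 made up nearly all of it, whereas with TIC the mean of Pdgfra was 2.66 against 2.72 FPKM and that of Cspg4 5.48 against 1.51 FPKM. Of 9 microglial and macrophage markers 3 were measured, and their sum went from 30.7 to 55.1 FPKM in controls to 112 to 116 FPKM with TIC, through the lysosomal gene Cd68 (42.6 ± 12.5 to 112 ± 1.60 FPKM), while Aif1 stayed near 1 FPKM (1.09 ± 1.10 in controls and 0.630 ± 0.391 with TIC). The neuronal sum over 3 of 5 markers was 30.4 to 41.2 FPKM in controls, 52.9 to 60.4 FPKM with TIC and 13.7 to 16.3 FPKM with IFNβ and TIC. Snap25 made up most of it, with 33.3 ± 5.41, 52.1 ± 4.36 and 12.5 ± 1.58 FPKM in these groups. The part of these cells in the results was not tested. In bulk RNA, fewer cells of a type and less RNA per cell cannot be told apart.

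The 10 genes covered a wide range of levels. Over the 18 libraries Mt3 averaged 3479 FPKM and stood at rank 6 of 10431 genes, Hmox1 averaged 1535 FPKM at rank 20, and Nqo1 673 FPKM at rank 75. Gclc, Txnrd1 and Nfe2l2 averaged 176, 162 and 127 FPKM, Gclm 78.0 FPKM, Srxn1 74.1 FPKM and Gsr 57.0 FPKM, with Slc7a11 lowest at 32.4 FPKM. FPKM is scaled for transcript length, so these are comparisons of level between genes. The ratio of the highest to the lowest group mean was 8.98 for Slc7a11, 4.11 for Txnrd1, 3.67 for Nqo1 and 3.32 for Mt3, against 1.63 for Gclc and 1.41 for Gclm. Of the 10 genes, 5 had their highest mean with IFNγ and TIC (Hmox1, Nqo1, Txnrd1, Srxn1 and Gsr) and 2 with TIC alone (Slc7a11 and Nfe2l2).

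**Figure D1:**
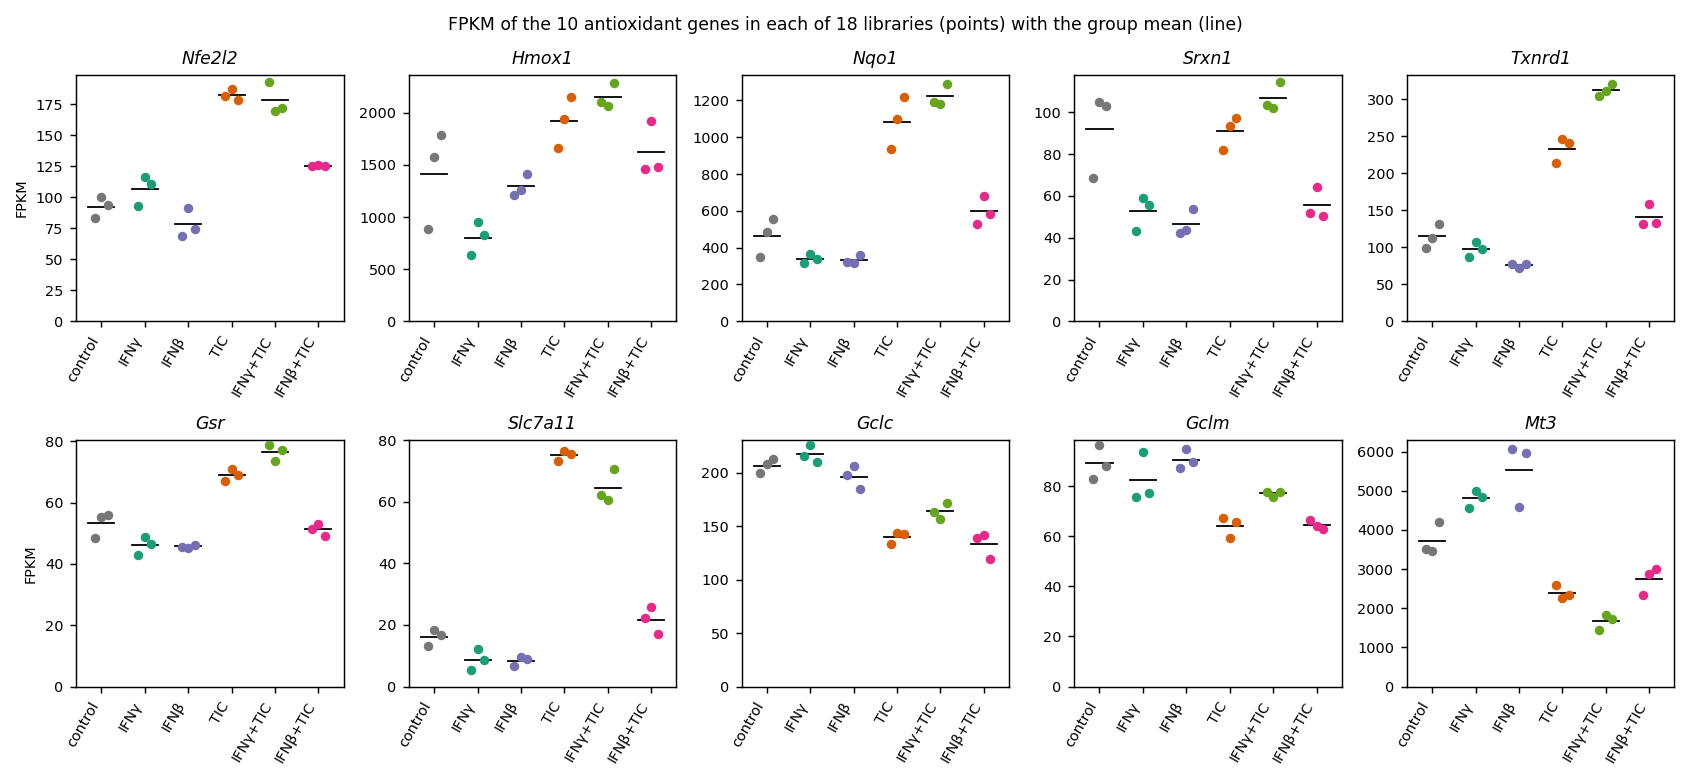
FPKM of each of the 10 genes in every library (points, 3 per group) with the group mean as a line, each panel on its own linear axis from 0. Slc7a11 stands at 73.2 to 76.5 FPKM with TIC and at 17.1 to 25.9 FPKM with IFNβ and TIC, Gclc and Gclm are lower in all TIC libraries than in all controls, and control 1 lies below the other controls for Hmox1, Nqo1 and Srxn1.

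Differences were tested with limma on the log2(FPKM + 1) scale, and p-values were adjusted by Benjamini-Hochberg over the 10296 genes. The words rose and fell, and called, mean an adjusted p under 0.05. Groups are first set against control. TIC moved 9 of the 10 genes. It raised Slc7a11, Nqo1, Txnrd1, Nfe2l2, Hmox1 and Gsr (6 higher, where 25.3% of all tested genes were higher) and lowered Mt3, Gclc and Gclm (3 lower, where 31.2% of all were lower). The median log2 change was 0.43 over the 10 genes and -0.04 over all genes. With IFNγ and TIC the same 6 genes were higher and the same 3 lower against control, with 22.9% of all genes higher and 40.4% lower. After median-ratio scaling, which moved the median of all genes from -0.15 to 0.01, 7 members were higher and 1 lower, with Srxn1 gained and Gclc and Gclm lost, against 31.6% and 31.1% of all genes. With IFNβ and TIC Nfe2l2, Nqo1 and Txnrd1 were called higher, and Srxn1, Gclc, Gclm and Mt3 lower, with 19.3% of all genes higher and 42.8% lower. After that scaling, with a median over all genes of -0.20 before it, 5 members were higher and 3 lower, with Slc7a11 and Gsr gained and Mt3 lost, against 30.2% and 29.3% of all genes. These comparisons share the control libraries, so their likeness is not a result in itself.

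The interferons alone moved fewer of these genes, mostly downward. IFNγ lowered Slc7a11, Srxn1, Hmox1 and Nqo1 and raised Mt3 (4 lower and 1 higher, with 7.17% of all genes lower and 7.11% higher, or 3 lower and 1 higher, with Nqo1 lost, against 5.4% and 8.32% after median-ratio scaling). IFNβ lowered Srxn1, Slc7a11, Txnrd1, Nqo1 and Gsr and raised Mt3 (5 lower and 1 higher, with 29.1% of all genes lower and 8.86% higher). After median-ratio scaling, which moved the median of all genes under IFNβ from -0.16 to -0.03, the split over all genes was 15.9% lower and 14.3% higher, and that of the members 3 lower and 1 higher, with Nqo1 and Gsr lost.

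**Figure D2:**
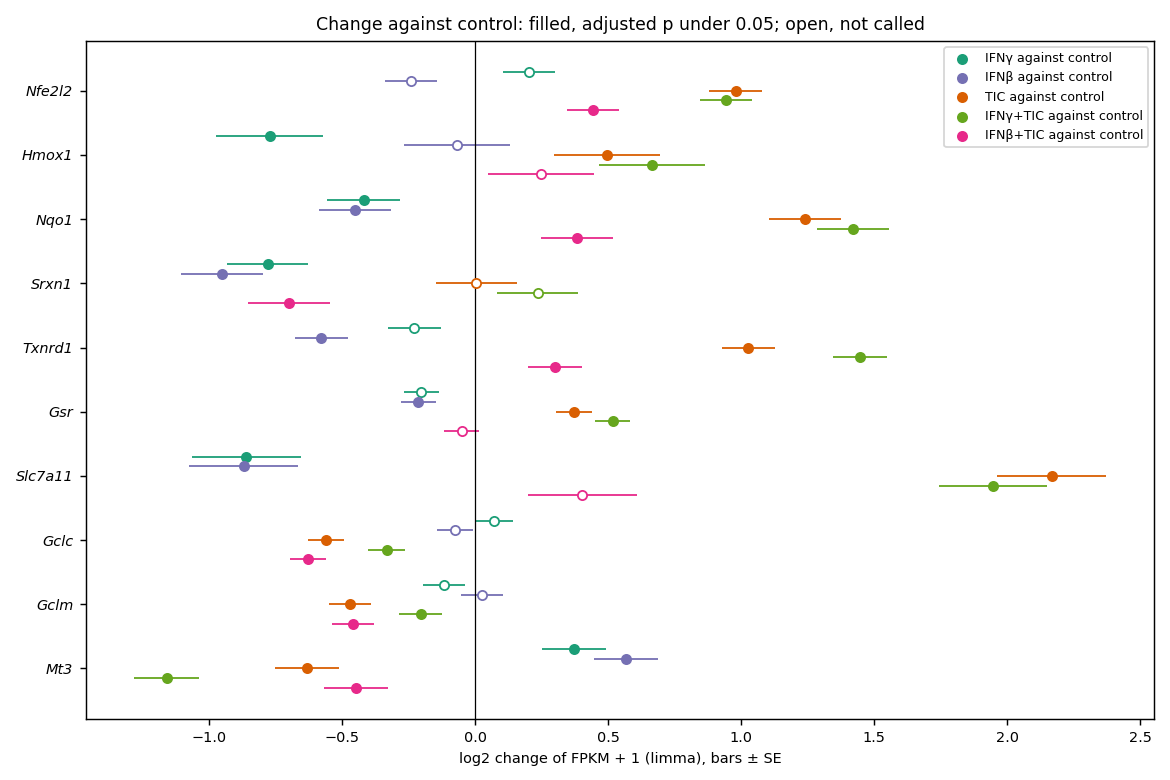
Log2 change of FPKM + 1 against control for the 10 genes (rows) in the 5 treated groups (colours), with bars of ± 1 SE, filled where the adjusted p was under 0.05. Slc7a11 has the largest change with TIC (2.17) and a smaller, uncalled one with IFNβ and TIC (0.40), and Mt3 is raised by each interferon alone and lowered in the 3 groups with TIC.

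Nfe2l2 encodes NRF2 itself. Its level was 83.4, 100.2 and 93.5 FPKM in the 3 controls and 182, 188 and 178 FPKM with TIC. With IFNβ and TIC it was 125, 126 and 125 FPKM, between both groups and overlapping neither. TIC raised Nfe2l2 1.98-fold (log2 change 0.98, SE 0.10, adjusted p = 1.92e-07 by limma), and IFNγ with TIC stood at 193, 169.6 and 172 FPKM (0.94 against control, SE 0.10). Alone, IFNγ gave 92.7, 116 and 111 FPKM and IFNβ 69.1, 91.1 and 74.8 FPKM, each overlapping the controls and neither called (adjusted p = 0.196 and 0.0631 by limma). These measure the transcript, while NRF2 is known to be controlled largely as a protein. Of 11 regulators of NRF2, TIC raised 5 and lowered 1 (25.3% and 31.2% of all genes). The small MAF partner genes Maff, Mafk and Mafg were among the 5, Maff from 1.77 ± 0.436 to 16.8 ± 2.88 FPKM (2.68, SE 0.15). Rbx1 (0.48, SE 0.08) and Btrc (0.52, SE 0.11) also rose, and Gsk3b fell (-0.33, SE 0.13). Keap1 gave -0.16 (SE 0.10), Sqstm1, an adaptor that draws KEAP1 into autophagy, 0.00207 (SE 0.14) and Bach1, a repressor at the same elements, -0.06 (SE 0.15), none of them called.

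Hmox1 encodes haem oxygenase 1, which breaks haem down to biliverdin, iron and carbon monoxide. Its controls spread widely, at 886, 1574 and 1787 FPKM. TIC gave 1664, 1945 and 2156 FPKM, overlapping the controls, and IFNγ with TIC gave 2108, 2062 and 2286 FPKM, above all of them. IFNγ alone gave 638, 949 and 823 FPKM, which reaches above control 1 but lies below the other controls. IFNγ lowered Hmox1 1.76-fold (-0.77, SE 0.20, adjusted p = 0.014 by limma), TIC raised it 1.36-fold (0.50, SE 0.20, adjusted p = 0.044) and IFNγ with TIC raised it 1.52-fold (0.66, SE 0.20). IFNβ with 1214, 1261 and 1411 FPKM was not called (-0.07, 95% interval -0.49 to 0.35). The call with TIC was lost without control 1 (0.19, adjusted p = 0.32), TIC 2 (0.48, adjusted p = 0.0928) or TIC 3 (0.41, adjusted p = 0.145), and that with IFNγ and TIC without control 1 (0.36, adjusted p = 0.0538). The IFNγ call was lost without control 2, control 3 or IFNγ 1, at adjusted p of 0.0665 to 0.0717. In the authors' deposited table Hmox1 was called with IFNγ and TIC (0.76, adjusted p = 0.00857) but neither with IFNγ (-0.53, adjusted p = 0.116) nor with TIC (0.49, adjusted p = 0.138).

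Nqo1 encodes a quinone reductase. It stood at 351, 487 and 553 FPKM in controls, at 936, 1097 and 1217 FPKM with TIC, and at 1191, 1181 and 1292 FPKM with IFNγ and TIC. With IFNβ and TIC it stood at 529, 683 and 582 FPKM, overlapping the controls and below every other TIC library. TIC raised Nqo1 2.34-fold (1.24, SE 0.14, adjusted p = 5.7e-07 by limma) and IFNβ with TIC 1.29-fold (0.38, SE 0.14, adjusted p = 0.0219), a call lost without control 1 (0.20, adjusted p = 0.158) or without IFNβ and TIC 2 (0.28, adjusted p = 0.111). Alone, IFNγ gave 316, 366 and 341 FPKM (-0.42, adjusted p = 0.0482) and IFNβ 321, 319 and 360.3 FPKM (-0.45, adjusted p = 0.0149), and each group overlapped control 1. Both calls were lost with median-ratio scaling (-0.38 and -0.30, adjusted p = 0.0742 and 0.0999).

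Txnrd1 encodes the cytosolic thioredoxin reductase, a selenoprotein that keeps thioredoxin reduced with NADPH. Its levels were 99.5, 112 and 132 FPKM in controls, 213, 246 and 241 FPKM with TIC, and 304, 311 and 321 FPKM with IFNγ and TIC. IFNβ with TIC gave 131, 158 and 133 FPKM, and IFNβ alone 77.6, 72.5 and 77.6 FPKM. The 3 groups control, TIC, and IFNγ with TIC did not overlap each other, and all IFNβ libraries lay below all controls. TIC raised Txnrd1 2.04-fold (1.03, SE 0.10, adjusted p = 1.3e-07 by limma), IFNγ with TIC 2.72-fold (1.45, SE 0.10, adjusted p = 9.56e-10), and IFNβ lowered it 1.51-fold (-0.58, SE 0.10, adjusted p = 0.000254). IFNβ with TIC was 1.23-fold above control (0.30, adjusted p = 0.0155), a call lost without control 1 (0.20, adjusted p = 0.0969) or without IFNβ and TIC 2 (0.21, adjusted p = 0.094). The substrate of the enzyme went the other way: Txn1, thioredoxin, fell with TIC from 2492 ± 229 to 1011 ± 61.3 FPKM (-1.30, SE 0.09).

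Srxn1, sulfiredoxin, which repairs overoxidised peroxiredoxins, separated from its neighbours. It stood at 68.5, 105 and 103 FPKM in controls and at 81.9, 93.7 and 97.4 FPKM with TIC, a difference of 0.00 (95% interval -0.32 to 0.33). With IFNγ it stood at 43.1, 59.2 and 55.9 FPKM and with IFNβ at 42.3, 43.7 and 53.7 FPKM, and no library of either overlapped the controls. IFNγ lowered Srxn1 1.75-fold (-0.78, SE 0.15, adjusted p = 0.00186 by limma) and IFNβ 1.98-fold (-0.95, SE 0.15, adjusted p = 0.00013). With TIC present the groups parted, to 103, 102 and 115 FPKM with IFNγ and 51.9, 64.5 and 50.4 FPKM with IFNβ. Against control, IFNγ with TIC was not called (0.23, adjusted p = 0.194) except with median-ratio scaling (0.41, adjusted p = 0.0286), and in the authors' deposited table it was called higher (0.43, adjusted p = 0.00561). Of the peroxiredoxins, Prdx1 gave -0.05 with TIC (SE 0.06), which was not called, nor were Prdx2 and Prdx3. Prdx5 rose (0.60, SE 0.10), while Prdx4 (-0.27, SE 0.09) and Prdx6 (-0.30, SE 0.08) fell.

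Gsr, glutathione reductase, recycles oxidised glutathione. It was 48.4, 55.4 and 56.1 FPKM in controls, 66.9, 71.1 and 69.2 FPKM with TIC, 78.7, 73.7 and 77.2 FPKM with IFNγ and TIC, and 51.6, 53.2 and 49.2 FPKM with IFNβ and TIC. TIC raised it 1.30-fold (0.37, SE 0.07, adjusted p = 0.000139 by limma) and IFNγ with TIC 1.44-fold (0.52, SE 0.07). With IFNβ and TIC it overlapped the controls (-0.05, adjusted p = 0.525), and median-ratio scaling turned this to a called 0.17 (adjusted p = 0.0354), so its direction there is not settled. IFNβ alone lowered Gsr by limma (-0.21, adjusted p = 0.018), a call lost with that scaling (-0.07, adjusted p = 0.487) and without control 2 or control 3.

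Slc7a11 encodes the transporter subunit xCT, which imports cystine for glutathione synthesis in exchange for glutamate, and it moved furthest of the 10 genes. Its levels were 13.2, 18.5 and 16.6 FPKM in controls, 73.2, 76.5 and 75.6 FPKM with TIC, 62.2, 60.6 and 70.8 FPKM with IFNγ and TIC, and 22.1, 25.9 and 17.1 FPKM with IFNβ and TIC. Every TIC library was above every IFNγ and TIC library, and IFNβ with TIC overlapped the controls. TIC raised Slc7a11 4.66-fold (2.17, SE 0.20, adjusted p = 8.43e-08 by limma) and IFNγ with TIC 4.01-fold (1.95, SE 0.20). IFNβ with TIC was not called (0.40, 95% interval -0.03 to 0.83), but was with median-ratio scaling (0.62, adjusted p = 0.0172) and in the authors' deposited table (0.67, adjusted p = 6.88e-05). Alone, IFNγ gave 5.45, 12.3 and 8.52 FPKM (-0.86, SE 0.20, adjusted p = 0.00797) and IFNβ 6.63, 9.51 and 8.95 FPKM (-0.87, SE 0.20, adjusted p = 0.00303), all below the lowest control. Its partner in the transporter, Slc3a2, was not called with TIC (46.7 ± 19.4 to 35.2 ± 11.9 FPKM, -0.38, SE 0.36). It is named here after its values were seen.

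Gclc and Gclm, the catalytic and the modifier subunit of glutamate-cysteine ligase, the rate-limiting enzyme of glutathione synthesis, both fell with TIC while Slc7a11 rose. Gclc was 199.6, 208 and 213 FPKM in controls, 133, 143 and 143 FPKM with TIC, 163, 157 and 172 FPKM with IFNγ and TIC, and 139, 142 and 119.7 FPKM with IFNβ and TIC. Gclm was 83.0, 96.6 and 88.1 FPKM in controls, 67.4, 59.2 and 65.7 FPKM with TIC, 77.8, 75.7 and 77.9 FPKM with IFNγ and TIC, and 66.6, 64.3 and 62.9 FPKM with IFNβ and TIC. For both genes, every library with TIC lay below every control. TIC lowered Gclc 1.48-fold (-0.56, SE 0.07, adjusted p = 1.91e-06 by limma) and Gclm 1.39-fold (-0.47, SE 0.08, adjusted p = 7.35e-05), calls that held in all 13 alternatives tried. With IFNγ and TIC both were called lower (-0.33 and -0.21), but with median-ratio scaling neither was (-0.15, adjusted p = 0.056, and -0.03, adjusted p = 0.803), and the authors' deposited table called neither (-0.10 and -0.03). Neither interferon alone gave a call in either gene, with log2 changes of -0.12 to 0.07. Gss, which completes glutathione after this ligase, rose with TIC from 74.4 ± 6.99 to 142 ± 10.7 FPKM (0.93, SE 0.07). It is named here after its values were seen.

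Mt3, a metallothionein of the brain that binds zinc and copper through cysteines and is not a classical NRF2 target, was raised by each interferon alone and lowered wherever TIC was present. The controls held 3509, 3454 and 4216 FPKM, against 4561, 5005 and 4850 FPKM with IFNγ, and 6072, 4589 and 5962 FPKM with IFNβ, and no library of either interferon overlapped the controls. With TIC it was 2591, 2269 and 2335 FPKM, with IFNγ and TIC 1455, 1817 and 1730.5 FPKM, and with IFNβ and TIC 2345, 2873 and 2993 FPKM, all below the controls. IFNβ raised Mt3 1.49-fold (0.57, SE 0.12, adjusted p = 0.00145 by limma), TIC lowered it 1.55-fold (-0.63, SE 0.12, adjusted p = 0.000257) and IFNγ with TIC lowered it 2.23-fold (-1.16, SE 0.12, adjusted p = 2.03e-07). The rise with IFNγ (0.37, adjusted p = 0.0489) lost its call in each leave-out of control 1, control 2 or an IFNγ library, at adjusted p of 0.0642 to 0.157, while the authors' deposited table called it (0.42, adjusted p = 0.000116). The fall with IFNβ and TIC (-0.45) did not pass after median-ratio scaling (-0.22, adjusted p = 0.127). The metallothioneins Mt1 and Mt2A also rose with each interferon alone, but they rose with TIC, where Mt3 fell. Mt2A went from 348 ± 40.6 FPKM in controls to 1007 ± 28.9 FPKM with IFNγ (1.54, SE 0.14). It stood at 835 ± 179 FPKM with IFNβ (1.24, SE 0.14) and 824 ± 106 FPKM with TIC (1.24, SE 0.14). Mt1 rose by 1.20 with IFNγ, 0.42 with IFNβ and 0.66 with TIC.

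When an interferon was added to TIC, Txnrd1 alone was called with both on the FPKM values as deposited, lower with IFNβ and higher with IFNγ. After median-ratio scaling Gsr and Mt3 were also called with both, Gsr in the same directions as Txnrd1 and Mt3 in the reverse. The comparisons share the TIC libraries. Against TIC alone, IFNβ with TIC was lower in 6 genes and higher in 0 (31.5% and 9.86% of all genes). At an unadjusted p under 0.05 by limma 0 of the 10 was higher, but the share of all genes at that threshold is not given here. Slc7a11 fell 3.46-fold (-1.76, SE 0.20, adjusted p = 2.9e-06), Nqo1 1.81-fold (-0.86, SE 0.14), Txnrd1 1.66-fold (-0.73, SE 0.10), Srxn1 1.64-fold (-0.71, SE 0.15), Nfe2l2 1.45-fold (-0.54, SE 0.10) and Gsr 1.35-fold (-0.42, SE 0.07). None of these 6 overlapped the TIC libraries, though the share of all genes without overlap is not given here. All 6 calls held in the 13 alternatives. Median-ratio scaling moved the median of all genes from -0.15 to -0.00195 and the split to 16.4% lower and 15.7% higher, and added Mt3 as 1 member called higher (0.35, adjusted p = 0.0307). Gclc and Gclm gave -0.07 and 0.01, neither called.

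With IFNγ added to TIC, 3 genes were higher and 1 lower (7.42% and 21.8% of all genes, or 4 and 1, with Gsr gained, against 10.6% and 11.9% after median-ratio scaling). Txnrd1 rose 1.34-fold (0.42, SE 0.10, adjusted p = 0.00427 by limma), Gclm 1.20-fold (0.26, SE 0.08, adjusted p = 0.0181) and Gclc 1.17-fold (0.23, SE 0.07, adjusted p = 0.018), and Mt3 fell 1.44-fold (-0.53, SE 0.12, adjusted p = 0.00318). The Gclc call was lost without TIC 1 or without IFNγ and TIC 3, and the Gclm call without TIC 2, without IFNγ and TIC 1, or without IFNγ and TIC 3. Compared directly, IFNβ with TIC was lower than IFNγ with TIC in 8 genes and higher in Mt3 (12.7% and 9.72% of all genes, or 7 lower and 1 higher, with Gclm lost, against 10.2% and 11.7% after that scaling). The largest gaps were in Slc7a11 (-1.54, SE 0.20), Txnrd1 (-1.15, SE 0.10), Nqo1 (-1.04, SE 0.14) and Srxn1 (-0.94, SE 0.15). Hmox1 did not pass (-0.42, 95% interval -0.84 to 0.00, adjusted p = 0.156), although its libraries did not overlap. Without TIC, IFNβ differed from IFNγ in 3 genes: Hmox1 was higher (0.70, adjusted p = 0.0165), and Txnrd1 (-0.35) and Nfe2l2 (-0.44) lower (1 higher and 2 lower, with 5.77% and 19.3% of all genes, or 2 and 1, with Gclm gained and Txnrd1 lost, against 9.04% and 10.4% after that scaling). The Hmox1 call was lost without IFNγ 1 (0.55, adjusted p = 0.0862) or IFNβ 3, and the Txnrd1 call with median-ratio scaling (-0.24) and without IFNγ 2 (-0.28) or IFNβ 2 (-0.32).

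TIC added to an interferon was compared with that interferon alone. On IFNγ it raised 7 genes and lowered 2 (22.2% and 36.6% of all genes, or the same 7 and 2 against 29.7% and 29.2% after median-ratio scaling): Slc7a11 7.37-fold, Nqo1 3.58-fold, Txnrd1 3.20-fold, Hmox1 2.68-fold and Srxn1 2.02-fold, with Nfe2l2 and Gsr, and with Mt3 and Gclc lower. On IFNβ it raised 4, Slc7a11 (2.59-fold), Txnrd1 (1.86-fold), Nqo1 (1.79-fold) and Nfe2l2 (1.60-fold), and lowered Mt3, Gclc and Gclm (18.6% and 27.7% of all genes, or 5 and 3, with Gsr gained, against 23.4% and 22.8% after that scaling). Hmox1 gave 1.44 (SE 0.20) on IFNγ and 0.32 (SE 0.20, adjusted p = 0.213) on IFNβ.

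Whether an interferon acted differently with TIC than without it was tested as an interaction, the log2 change on TIC minus the log2 change alone. For IFNγ 6 of the 10 interactions were positive and 1 negative at an adjusted p under 0.05 by limma, where 3.64% and 10.2% of all genes were (also 6 and 1 members against 4.75% and 7.12% after median-ratio scaling). Srxn1 gave 1.01 (SE 0.22, adjusted p = 0.0047), as IFNγ alone lowered it and on TIC gave 0.23. Hmox1 gave 0.94 (SE 0.28, adjusted p = 0.0343), Txnrd1 0.65 (SE 0.14, adjusted p = 0.00514) and Nqo1 0.60 (SE 0.19, adjusted p = 0.0474). Gclm gave 0.38, Gsr 0.35 and Mt3 -0.90 (SE 0.17, adjusted p = 0.00186). Hmox1, Nqo1, Srxn1, Txnrd1 and Gsr also varied together between libraries of a group (Pearson's r of 0.777 to 0.954), so their calls are not independent. The calls of Srxn1, Txnrd1 and Mt3 held in all 19 alternatives, whereas those of Hmox1, Nqo1, Gclm and Gsr were lost when single libraries were left out, as given in the closing section. For IFNβ only Slc7a11 had a called interaction, of -0.89 (SE 0.29, adjusted p = 0.0449), 1 lower and 0 higher where 8.66% and 7.16% of all genes were called. At an unadjusted p under 0.05 by limma 4 were negative and 0 positive, but the share of all genes at that threshold is not given here. The Slc7a11 call was lost in 13 of 19 alternatives.

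**Figure D3:**
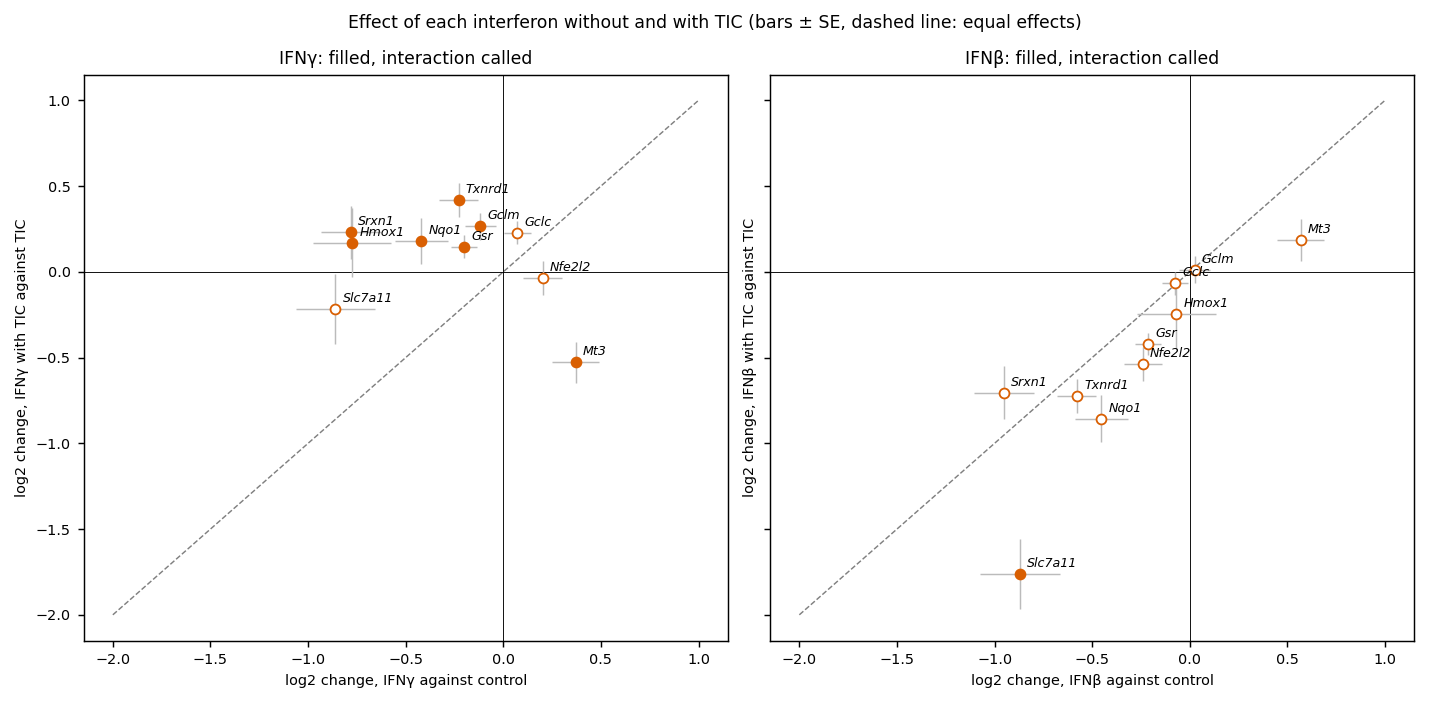
Log2 change of each gene with an interferon alone (horizontal axis) against the change with the same interferon on top of TIC (vertical axis), for IFNγ on the left and IFNβ on the right, with bars of ± 1 SE and a dashed line where both are equal. Points are filled where the interaction was called: 7 genes for IFNγ, of which Srxn1, Hmox1 and Nqo1 were lowered by IFNγ alone, and Slc7a11 for IFNβ.

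The wider pathway was read from 9 lists of 78 other genes, of which 73 were tested. With TIC, 27 of the 73 rose and 22 fell (25.3% and 31.2% of all genes), and their median log2 change was -0.05. NADPH supply had 3 of 6 higher and 2 lower: Pgd, of the pentose phosphate pathway, rose from 55.4 ± 8.47 to 152 ± 17.2 FPKM (1.45, SE 0.11), and Taldo1 by 0.74 (SE 0.11). The 2 lower were Idh1 (-0.57, SE 0.07) and Tkt (-0.42, SE 0.07). Other NRF2 targets had 7 of 11 higher, led by the aldo-keto reductase Akr1b8 (10.2 ± 2.42 to 161 ± 14.1 FPKM, 3.87, SE 0.34). In that list 3 were lower, Cbr3 (-1.24, SE 0.15), Osgin1 (-1.03, SE 0.13) and Aldh3a1 (-0.99, SE 0.25). Glutathione genes had 4 of 16 higher and 8 lower, with the glutaredoxin Glrx at -2.79 (SE 0.11) and the membrane transferase Mgst3 at -1.83 (SE 0.18). Thioredoxin and peroxiredoxin genes had 2 of 12 higher and 5 lower. In the haem and iron list 1 of 8 rose, the ferritin heavy chain Fth1 (0.28, SE 0.11), and 2 fell, among them the iron exporter Slc40a1 (-1.67, SE 0.19). Sod2, the mitochondrial superoxide dismutase and a known target of inflammatory signals through NF-κB, rose, alone in its list of 4, from 185 ± 19.8 to 1642 ± 41.9 FPKM (3.15, SE 0.09), while extracellular Sod3 fell by 1.37 on the log2 scale. Of 4 metallothionein and zinc genes 3 rose, and Cyba rose by 0.93 (SE 0.09) as the one tested of 6 NADPH oxidase genes.

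When IFNβ was added to TIC, 37 of the 73 genes fell and 6 rose (31.5% and 9.86% of all genes), with a median of -0.31 against -0.15 over all genes. All counts for the 73 genes and their lists are on FPKM as deposited, without median-ratio scaling. With that scaling 16.4% of all genes were lower and 15.7% higher when IFNβ was added to TIC. NADPH supply had 5 of 6 lower, Pgd by 1.08 (SE 0.11) on the log2 scale. Other NRF2 targets had 6 of 11 lower, with Akr1b8 at -1.84 (SE 0.34). Sod2 fell to 924 ± 74.8 FPKM (-0.83, SE 0.09), and Glrx rose (1.41, SE 0.11). Of the regulators of NRF2, Cul3 rose by 1.05 (SE 0.32), Sqstm1 by 0.37 (SE 0.14) and Keap1 by 0.34 (SE 0.10). Btrc (-0.44, SE 0.11), Mafg (-0.41, SE 0.11), Nfe2l1 (-0.39, SE 0.12) and Mafk (-0.35, SE 0.12) fell. When IFNγ was added, 10 rose and 14 fell (7.42% and 21.8% of all genes), with a median of -0.07 against -0.12 over all genes. Among those raised were Maff (0.92, SE 0.15), Glrx (0.65, SE 0.11), Bach1 (0.56, SE 0.15), Txn1 (0.53, SE 0.09), Keap1 (0.29, SE 0.10) and Sod2 (0.28, SE 0.09). The 14 that fell included Aldh3a1 (-1.12, SE 0.25), Sod3 (-0.76, SE 0.18), Gsta4 (-0.69, SE 0.08), Tfrc (-0.68, SE 0.15), Gstm5 (-0.51, SE 0.09) and Ephx1 (-0.50, SE 0.07).

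**Figure D4:**
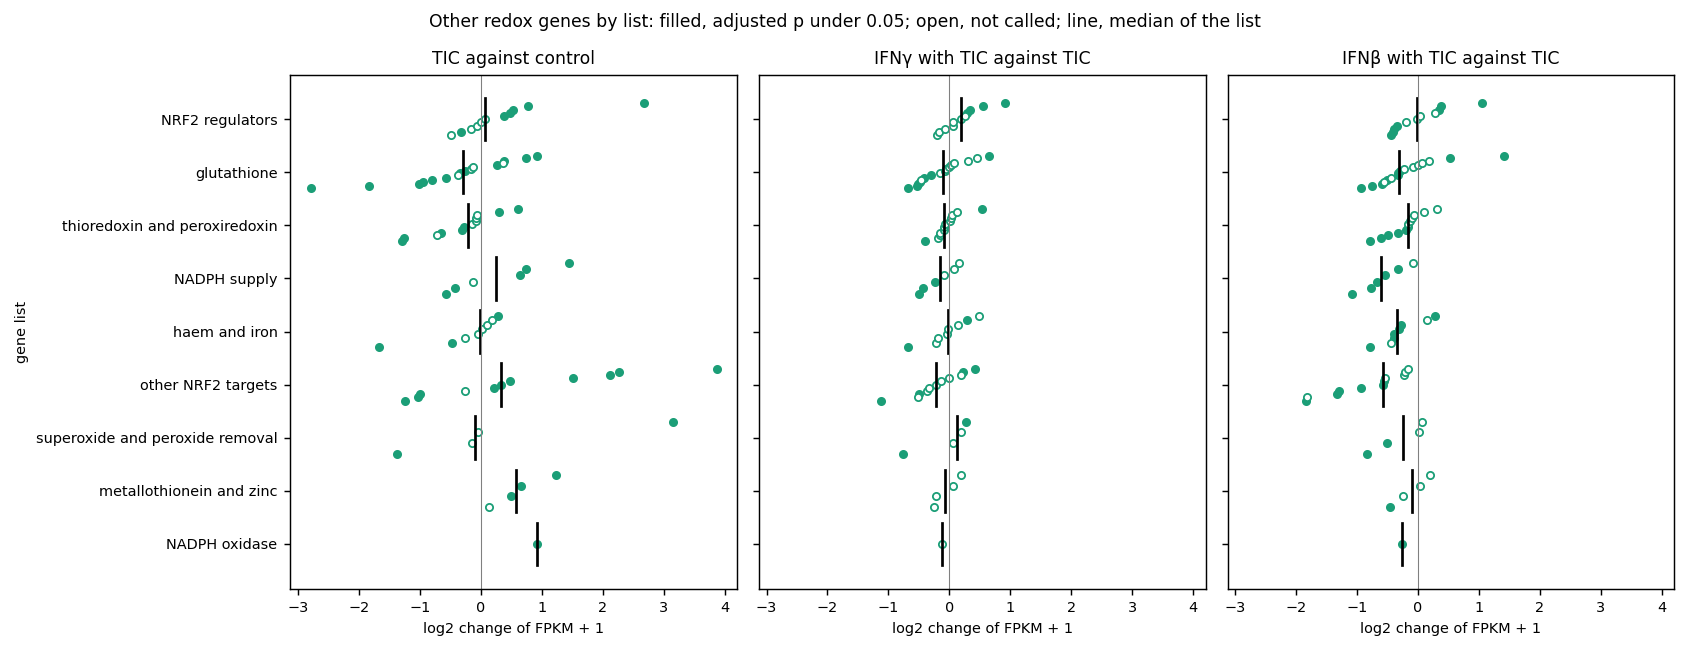
Log2 change of each of the 73 other tested redox genes, by list (rows), with TIC against control, IFNγ with TIC against TIC and IFNβ with TIC against TIC, filled where called and with the median of each list as a vertical line. Sod2 (3.15) and Akr1b8 (3.87) are the points furthest right in the first panel, and the median of NADPH supply is 0.26 there and -0.61 in the last panel.

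The genes also varied between libraries that had the same treatment. The SD of Hmox1 was 33.3% of its mean in controls and that of Gclc 3.16%. Deviations of each library from its own group mean on the log2 scale ran together for a subset of the genes over the 18 libraries. Pearson's r with Hmox1 was 0.954 for Srxn1, 0.952 for Nqo1, 0.900 for Gsr and 0.891 for Txnrd1 (Spearman's rho 0.950, 0.942, 0.872 and 0.880). Among 10295 other tested genes, Srxn1 stood at rank 2 and Nqo1 at rank 3 for this likeness to Hmox1, with Gsr at 12 and Txnrd1 at 16, while the median gene had r = -0.02. Slc7a11 gave 0.705, Nfe2l2 0.492, Gclm 0.461, Gclc 0.421 and Mt3 0.286. Without control 1 and control 3, the libraries furthest from the median, r was 0.961 for Srxn1, 0.901 for Nqo1, 0.829 for Gsr and 0.849 for Txnrd1. In control 1, 9 of the 10 genes had the lowest of the 3 control values, in IFNγ 1 9 had the lowest of their group, and in IFNγ 2 all 10 had the highest. Replicate 1 was also lowest for 7 genes with TIC, 5 with IFNβ, 5 with IFNβ and TIC, and 2 with IFNγ and TIC. The share of all genes lowest or highest in these libraries is not given here, and genes that ran together are not independent. Whether replicate numbers mark a shared culture for these genes was not tested. The deviations are taken from 6 group means of 3 libraries each, and this comparison was chosen after the values were seen.

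**Figure D5:**
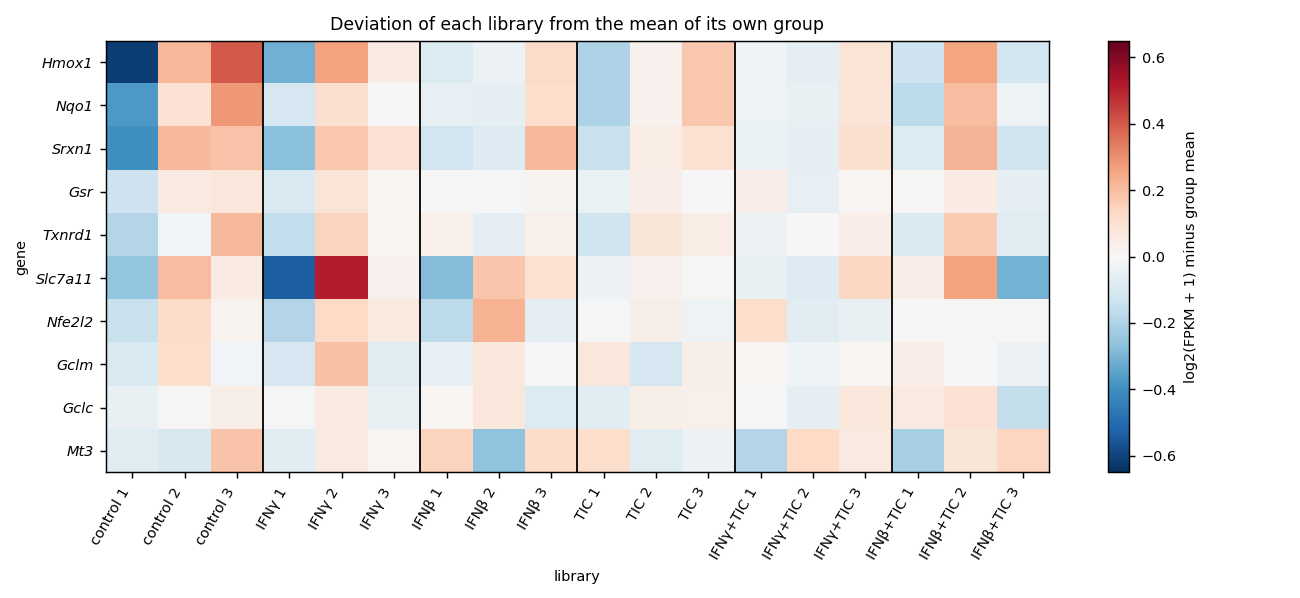
Deviation of each library (columns, grouped by treatment) from the mean of its own group, in log2(FPKM + 1), for the 10 genes (rows). Control 1 is low for Hmox1 (-0.61) and for Nqo1 and Srxn1, and the rows of Nqo1, Srxn1, Gsr and Txnrd1 follow that of Hmox1 (r of 0.891 to 0.954) more closely than those of Gclc, Gclm and Mt3 (0.286 to 0.461).

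Across the 18 libraries, the genes of most similar pattern were sought among 3189 genes whose group means span at least 1 on the log2 scale. Taldo1, a pentose phosphate enzyme, was among the 3 nearest of 4 members, with r = 0.986 for Nqo1, 0.977 for Txnrd1, 0.967 for Slc7a11 and 0.967 for Gsr. Its means were 382 ± 68.1 FPKM in controls, 633 ± 44.0 FPKM with TIC, 665 ± 19.5 FPKM with IFNγ and TIC, and 396 ± 52.0 FPKM with IFNβ and TIC. For Gsr the nearest was Asns, asparagine synthetase (0.982), and for Srxn1 it was Sesn2, a stress-induced sestrin (0.912). For Nfe2l2 it was the cell cycle inhibitor Cdkn2b (0.981), for Slc7a11 the calcium-binding Pvalb (0.979), for Txnrd1 Haus8 (0.981) and for Hmox1 the arginine transporter Slc7a1 (0.912). Gclc and Gclm both had Txn1 among their nearest 3 (0.932 and 0.856), and for Mt3 the nearest was Cdk5rap2 (0.963). These are descriptions over 6 group levels with 3 libraries each.

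The authors' deposited table gives log2 fold changes for 9 of the 10 genes in 5 comparisons with control, and Txnrd1 has none in it. Of 45 such values in the authors' deposited table, 42 had the sign found here, 23 were called in both, 9 only here and 2 only there. Besides the cases above, called here only were Nqo1 and Gsr with IFNβ, Slc7a11 with IFNγ, Gclm with IFNβ and TIC, and Mt3 with IFNβ and TIC.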

How the data were processed

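Libraries were made with SMART-seq HT and Nextera XT and sequenced on a NovaSeq, per the labels' protocols. The submitters' processing notes name HISAT2, StringTie, DESeq2 and mm10, a mouse build, with versions not given in the sources used here. The identifiers in the table are of rat. The authors deposited FPKM per gene and library, with log2 fold changes and adjusted p-values against control, per the file headers. Of the table, 3 rows without a name were left out, and 17 symbols that a spreadsheet had turned to numbers were kept as they stand. FPKM gives no read count, so the depth is unknown.

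From the FPKM values, limma (version 3.58.1, R 4.3.3) was fitted to log2(FPKM + 1) with a trended prior on all 18 libraries and 6 groups. The 10296 genes with at least 1 FPKM in at least 3 libraries were tested in 13 comparisons, with Benjamini-Hochberg adjustment over all of them and a threshold of 0.05. Folds are ratios of mean FPKM, and log2 changes are on the log2(FPKM + 1) scale, which understates changes of low genes. Values after ± are SD over 3 libraries, and intervals are at 95%. The script was tested on simulated data. Named were all 10 members, up to 3 called genes with the largest change per list and comparison, a few fixed redox genes, and the 3 genes most like each member. Also named were the peroxiredoxins with TIC, and the regulators of NRF2 called with TIC or with IFNβ added to TIC. The members and lists were chosen with earlier results of these data known. Over genes as a whole, replicate numbers did not pair the libraries: of 45 same-numbered pairs, 6 had a correlation of deviations over 0.1 (range -0.17 to 0.15). This does not speak for the 10 genes alone, whose lowest value of a group was often in replicate 1. Alternatives were another pseudocount, no filter, median-ratio scaling, equal sums, no trend, only the groups compared, a replicate block and leaving out each library.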

Additional observations from a re-analysis of the deposited data

Results flagged for a closer look

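A difference between the effect of an interferon alone and its effect on top of TIC passed the test of that difference (limma, Benjamini-Hochberg adjusted) in 8 cases. For IFNγ the interaction, on the log2 scale, was 1.01 for Srxn1 (SE 0.22, adjusted p = 0.0047), 0.94 for Hmox1 (SE 0.28, adjusted p = 0.0343), 0.65 for Txnrd1 (SE 0.14, adjusted p = 0.00514) and 0.60 for Nqo1 (SE 0.19, adjusted p = 0.0474). It was 0.38 for Gclm (SE 0.11, adjusted p = 0.03), 0.35 for Gsr (SE 0.09, adjusted p = 0.02) and -0.90 for Mt3 (SE 0.17, adjusted p = 0.00186). For IFNβ it was -0.89 for Slc7a11 (SE 0.29, adjusted p = 0.0449).

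Without one library, the Hmox1 interaction lost its call in 9 cases, at 0.74 to 0.97 and adjusted p of 0.0548 to 0.0918. That of Nqo1 lost it in 9, at 0.46 to 0.62 and adjusted p of 0.0703 to 0.11. That of Gclm lost it in 7, at 0.33 to 0.40, and that of Gsr without control 2, IFNγ 1 or IFNγ and TIC 1, at 0.30 to 0.33.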

How the results depend on the processing

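Of 1810 values of the 10 genes under the alternatives, 1674 kept their direction and side of the threshold, 113 lost the call, 22 gained one and 1 reversed: Gsr with IFNβ and TIC against control was 0.17 (adjusted p = 0.0354) with median-ratio scaling. Of 130 values, 93 kept call and direction in every alternative. With IFNγ against control, 5 genes were called, 3 with a pseudocount of 0.1 or no trend, 1 with only the groups compared, and 2 to 6 when a library was left out. With IFNγ and TIC against TIC, 4 were called, and 2 to 4 when a library was left out. Of the IFNγ interactions 7 were called, 4 with only the groups compared, and 3 to 8 when a library was left out. The 1 IFNβ interaction became 0 with a pseudocount of 0.1, median-ratio scaling, equal sums or no trend, and 0 to 1 when a library was left out. When a library was left out, counts were 8 to 9 with TIC, 4 to 7 with IFNβ, 8 with IFNγ and TIC and 5 to 8 with IFNβ and TIC, each against control. The replicate block changed 1 call: Nfe2l2 with IFNβ against control was called under it (-0.24, adjusted p = 0.0481). Causes were not tested. Read depth is unknown, so counting error cannot be set beside these values.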

Other observations

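Outside the 10 genes, those whose deviations from the group mean ran closest to Hmox1 over the 18 libraries were Gadd45b, a stress-induced gene (r = 0.954), the aldo-keto reductase Akr1b1 (0.933) and Creg1 (0.929). Closest to Nqo1 were Akr1b1 (0.986), Taldo1 (0.964) and Gadd45b (0.940). These genes were chosen after their values were seen.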
